A study of Rattus norvegicus with 24 samples.

Results

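To compare a low dose of oil combustion particles (PM-LD) with zinc sulfate, cardiac gene expression was examined in rats that received either one by weekly instillation into the airways. The 8 arrays compared were the 4 whose labels name the particle suspension at the low dose and the 4 whose labels name zinc sulfate, of 24 arrays in the series, and all 15866 probe sets other than the 57 Affymetrix controls were tested. Each array held RNA of 1 heart (left ventricle and septum) of a male Wistar Kyoto rat, hybridized to an Affymetrix Rat 230A array, and the 4 saline rats served as the background level. PM-LD was a saline suspension that held insoluble components, soluble zinc (7.25 μg per mg in the label) and a little soluble nickel (1.5 μg per mg). By the methods of the study, it was the same particle sample as the high-dose suspension (14.5 μg zinc and 3 μg nickel per mg), given at a lower dose. The label values of PM-LD are thus not the content of the particles. Zinc sulfate was dissolved in saline, at 14.5 μg/ml in the label of the group and at 33.4 μg zinc per ml in a protocol of the labels. By the dose table of the study, the protocol value is the weekly zinc dose per kg of the 16-week zinc sulfate rats, and the 8-week rats received more than either label value, so that the label values do not give the dose of these arrays. By the methods of the study, PM-LD rats received less soluble zinc than zinc sulfate rats, and they also received solids and nickel, so that the zinc dose, the solids and the nickel cannot be told apart in this comparison. All rats, saline controls included, were 12–14 weeks old at the start and were dosed through the trachea every week in a volume of 1 ml/kg, anesthetized with halothane, and tissue was taken 48 hr after the last instillation. The zinc sulfate and saline arrays came from rats exposed for 8 weeks. For the PM-LD arrays, the sources used here do not say whether exposure lasted 8 or 16 weeks, and a difference in weeks cannot be told apart from the difference in exposure.

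Zinc enters the cytosol through the Slc39 transporters and leaves it, for the outside or for vesicles, through the Slc30 transporters. When free zinc rises, the zinc finger factor MTF-1 (Mtf1) binds metal response elements in promoters and raises the metallothioneins, which bind the metal, and the exporter Slc30a1. A second system described here is the circadian clock of the heart, in which Bmal1 and Clock activate Dbp and the nuclear receptors Nr1d1 and Nr1d2 (REV-ERB α and β), and these receptors in turn repress Bmal1.

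The promoters of 3 zinc-responsive genes and of Bmal1 are shown because these genes are the ones whose regulation by zinc or by the clock is best known. The sequences are the 250 bases before the annotated start of each gene, read 5′ to 3′ on the strand of the gene, from the RefSeq annotation of rat assembly GRCr8. Mt1 lies on the minus strand at chr19:10832976-10833225, Mt2A on the minus strand at chr19:10838709-10838958, Slc30a1 on the plus strand at chr13:106021769-106022018 and Bmal1 on the plus strand at chr1:176766078-176766327. In the first 3 sequences, capitals mark the core of the metal response element, TGCACNC or TGCGCNC, on either strand.
Mt1: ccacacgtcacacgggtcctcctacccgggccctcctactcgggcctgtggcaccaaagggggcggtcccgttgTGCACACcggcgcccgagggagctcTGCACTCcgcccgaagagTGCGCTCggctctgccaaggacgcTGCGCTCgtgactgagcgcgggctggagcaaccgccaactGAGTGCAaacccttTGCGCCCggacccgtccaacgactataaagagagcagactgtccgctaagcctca
Mt2A: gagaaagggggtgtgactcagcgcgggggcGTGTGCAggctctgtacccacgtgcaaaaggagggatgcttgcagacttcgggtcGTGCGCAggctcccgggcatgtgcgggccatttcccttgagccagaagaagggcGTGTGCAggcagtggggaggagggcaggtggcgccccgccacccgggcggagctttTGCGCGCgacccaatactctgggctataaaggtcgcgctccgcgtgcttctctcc
Slc30a1: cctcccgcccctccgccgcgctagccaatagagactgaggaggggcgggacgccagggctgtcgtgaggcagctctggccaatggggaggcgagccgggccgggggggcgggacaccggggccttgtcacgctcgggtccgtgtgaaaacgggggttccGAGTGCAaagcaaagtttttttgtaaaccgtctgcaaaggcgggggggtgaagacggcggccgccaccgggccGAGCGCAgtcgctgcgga
In the fourth, capitals mark the core of the REV-ERB binding site, AGGTCA, on either strand.
Bmal1: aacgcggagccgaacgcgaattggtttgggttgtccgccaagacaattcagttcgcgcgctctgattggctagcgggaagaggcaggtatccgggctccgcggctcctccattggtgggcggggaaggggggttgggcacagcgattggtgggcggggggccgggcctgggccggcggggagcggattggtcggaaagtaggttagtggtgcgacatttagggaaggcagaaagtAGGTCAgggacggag
The metal response core matched 6 times in Mt1, 4 times in Mt2A and 2 times in Slc30a1. Of 33469 rat promoters of the same length, 20.6% held at least 1 match, 4.90% at least 2, 0.266% at least 4 and 0.0269% at least 6. The core AGGTCA matched 1 time in Bmal1, and 14.1% of promoters held it. A match is a run of letters and not a measured site.

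Differences between PM-LD and zinc sulfate hearts were small and few. With the thresholds of the study, an unadjusted p under 0.05 in limma and a level more than 25% above or more than 25% below that of zinc sulfate, 289 probe sets were higher and 228 were lower in PM-LD, which is 3.26% of those tested (1.82% higher and 1.44% lower). Among 10411 genes, each represented by its brightest probe set, 154 were higher and 131 lower in PM-LD (2.74%). No probe set passed a Benjamini-Hochberg adjusted p under 0.05 in limma, the lowest adjusted p was 0.891, and 564 probe sets (3.55%) had an unadjusted p under 0.05, where a uniform p would give 5%. The median fold was 1.72 for the higher probe sets and 0.577 for the lower ones, and the median log2 fold change of all probe sets was −0.0012.

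Most of the probe sets past the thresholds were dim. Only 110 of 517 (21.3%) were brighter than the median of all probe sets, and of the 139 that differed more than 2-fold, 4 were. The 95% interval of a log2 fold change was ±0.45 in the median for bright probe sets (1.36-fold) and ±0.74 for dim ones (1.67-fold), so that differences smaller than these were mostly not detectable with 4 rats a group. The spread within groups was alike, with a median SD of log2 values of 0.31 in PM-LD, 0.28 in zinc sulfate and 0.26 in saline over bright probe sets. After normalization the 4 PM-LD rats lay wholly above the 4 zinc sulfate rats for 167 probe sets and wholly below for 170, 2.12% of those tested in all, and for 200 of the genes (1.92%). Exchangeable group labels would set a fraction of 0.0286 apart, the smallest p of the exact permutation test with 4 against 4 rats. Both the thresholds and the lack of overlap held for 149 probe sets (0.939%).

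**Figure D1:**
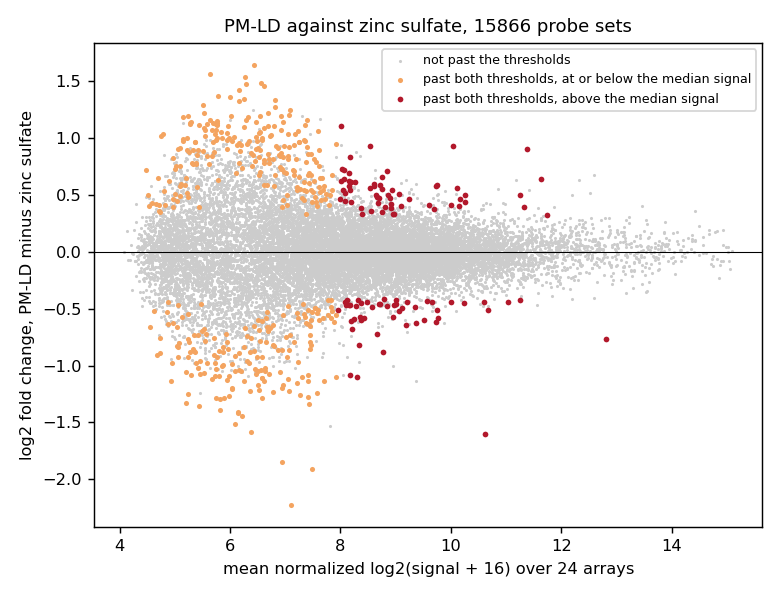
Each point is 1 probe set, with its mean normalized log2 signal over 24 arrays on the x axis and its log2 fold change, PM-LD minus zinc sulfate, on the y axis. Of the 517 probe sets past both thresholds (colored), 110 lie above the median signal (dark red).

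The Gapdh control signal at the 3′ end divided by that at the 5′ end, which rises as RNA breaks down, had a median of 1.56 in PM-LD (1.22–4.64), 1.50 in zinc sulfate (1.42–5.57) and 1.87 in saline (1.35–5.48). PM-LD and zinc sulfate did not differ detectably in this ratio (exact permutation p = 0.8, two-sided), but replicate 3 of PM-LD and replicate 3 of zinc sulfate were the rats with the high ratio. Replicate 2 of both groups stood apart by atrial transcripts, and for Myl7, an atrial myosin light chain, the signal was 11946 in PM-LD replicate 2 and 120–627 in the other PM-LD rats, against 5317 in zinc sulfate replicate 2 and 297–470 in the other zinc sulfate rats. The mean log2 value of Nppa, Myl4, Myl7 and Sln had a median of 8.93 in PM-LD and 8.96 in zinc sulfate (exact permutation p = 0.857). The cardiomyocyte list had no member past the thresholds, against 2.74% of all genes, and so short a list carries little information on this. Its 14 measured genes had summed signals of 268421–335106 in PM-LD, 275873–396974 in zinc sulfate and 216257–334488 in saline hearts. In tissue that holds several cell types, a lower level per cell and fewer cells of a type cannot be told apart. Without the arrays of a Gapdh ratio above 3, 695 probe sets passed (360 higher, 335 lower), of which 281 were among the 517, and without the arrays of an atrial mean above 11, 597 passed, of which 322 were among the 517.

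The 10 bright genes with the widest differences upward in PM-LD, without overlap, were Sh3bp5, Adarb1, Trim2, F13a1, Cat, Cdk18, Rnf4, Slc7a6os, Fndc3b and Sirpa. Sh3bp5, which encodes a protein that binds the SH3 domain of a tyrosine kinase, led with signals of 3136, 2953, 3714 and 4394 in PM-LD rats, against 2244, 1877, 2524 and 2542 in zinc sulfate rats and 3744, 2872, 3125 and 3430 in saline rats. Every PM-LD rat lay above every zinc sulfate rat, PM-LD and saline overlapped, and every zinc sulfate rat lay below every saline rat. The log2 fold change was 0.64 (standard error 0.22, 1.56-fold) and kept its call without any 1 array, at 0.54 to 0.75.

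Rnf4, a ubiquitin ligase that recognizes SUMO chains, had signals of 550, 543, 648 and 679 in PM-LD, against 344, 398, 477 and 474 in zinc sulfate and 436, 406, 449 and 469 in saline. All PM-LD rats were above all rats of both other groups, while zinc sulfate and saline overlapped, and the log2 fold change was 0.47 (standard error 0.15). Cat, the gene of catalase, which breaks down hydrogen peroxide, had signals of 2645, 2563, 2353 and 3855 in PM-LD, against 2148, 2027, 1878 and 1921 in zinc sulfate. PM-LD did not overlap with zinc sulfate, but saline spread across both, from 1218 to 2841. The log2 fold change of Cat was 0.50 (standard error 0.22), and the call was lost without PM-LD replicate 4 (0.37), zinc sulfate replicate 2 or zinc sulfate replicate 4. It was also lost with median centering and without the arrays of an atrial mean above 11.

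Sirpa, a receptor of myeloid cells that restrains phagocytosis, had signals of 582, 528, 702 and 605 in PM-LD, against 420, 465, 449 and 443 in zinc sulfate and 562, 473, 531 and 553 in saline. After normalization every PM-LD rat was above every zinc sulfate and every saline rat, and the log2 fold change was 0.40 (standard error 0.13). The lowest PM-LD rat was barely above the highest saline rat (9.175 against 9.174 in log2), and their signals overlapped before normalization. Fndc3b, which encodes a membrane protein with fibronectin type III domains, had 859, 842, 921 and 913 in PM-LD, against 614, 662, 705 and 598 in zinc sulfate and 604–771 in saline. These 4 PM-LD values lay within a narrow span above all rats of the other groups, with a log2 fold change of 0.42 (standard error 0.14). The calls of Sirpa and Fndc3b held without any 1 array. That of Sirpa was lost without the arrays of a Gapdh ratio above 3 and when its probe sets were averaged.

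Of the rest, F13a1, the A subunit of coagulation factor XIII, which tissue macrophages also make, had signals of 198–335 in PM-LD, against 125–244 in zinc sulfate and 211–357 in saline, with a log2 fold change of 0.52 (standard error 0.22). Trim2, a ubiquitin ligase, was higher by 0.55 (standard error 0.21), and Adarb1, an enzyme that edits adenosine in RNA, by 0.56 (standard error 0.26). Adarb1 kept its call in only 2 of the 8 fits that left out 1 array. Cdk18, a cyclin-dependent kinase of the PCTAIRE family, was higher by 0.48 (standard error 0.19) and Slc7a6os by 0.43 (standard error 0.17). The call of Slc7a6os was lost without PM-LD replicate 4, zinc sulfate replicate 4 or the arrays of a Gapdh ratio above 3. For F13a1, Trim2, Adarb1 and Cdk18 the signals before quantile normalization overlapped, with zinc sulfate replicate 3 above the lowest PM-LD rat in each. After normalization every zinc sulfate rat was below every saline rat for F13a1 and Trim2, although the signals of these 2 groups overlapped before it. In the second probe set of a gene, the difference was smaller for Trim2 (0.03), Cdk18 (0.25) and Adarb1 (−0.12), and of the 2 further probe sets of Sirpa, 1 was at 0.05 and the other at 0.27. The further probe sets of Rnf4 were at 0.33 and −0.14.

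The 10 bright genes with the widest differences downward in PM-LD, without overlap, were Zdhhc8, Pnn, Alyref, Bnip1, Stk25, Otud4, Phf1, Psmd13, Erp44 and Ndst2. Bnip1, a SNARE protein of the endoplasmic reticulum, had signals of 579, 833, 613 and 521 in PM-LD, against 1051, 1022, 873 and 886 in zinc sulfate and 764, 895, 783 and 649 in saline. PM-LD lay wholly below zinc sulfate and overlapped with saline, and the log2 fold change was −0.59 (standard error 0.17, 0.662-fold). Psmd13, a subunit of the proteasome lid, had 567, 488, 619 and 460 in PM-LD, against 720, 701, 888 and 690 in zinc sulfate and 433–699 in saline. After normalization zinc sulfate rats were above all rats of both other groups, and the log2 fold change was −0.48 (standard error 0.15).

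Otud4, a deubiquitinase, had signals of 1179, 1603, 1366 and 1519 in PM-LD, against 1672, 2083, 2203 and 2176 in zinc sulfate and 1389–1672 in saline, and the log2 fold change was −0.51 (standard error 0.18). Alyref, an adaptor of messenger RNA export, had 667, 614, 362 and 575 in PM-LD, against 732, 874, 856 and 875 in zinc sulfate and 554–690 in saline. After normalization zinc sulfate was above every saline rat for both genes, and PM-LD overlapped with saline. The log2 fold change of Alyref was −0.62 (standard error 0.20), and without PM-LD replicate 3 it was −0.39 and no longer passed. Its call was also lost without the arrays of a Gapdh ratio above 3.

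Erp44, a thioredoxin-like protein of the endoplasmic reticulum, had signals of 226, 215, 237 and 189 in PM-LD, against 328, 278, 333 and 255 in zinc sulfate and 257–297 in saline, and its log2 fold change was −0.47 (standard error 0.14). Here PM-LD rats were below all rats of both other groups, as they were for Phf1, a polycomb-associated protein (−0.50, standard error 0.20). The call of Phf1 was lost without PM-LD replicate 4, zinc sulfate replicate 3 or the arrays of a Gapdh ratio above 3. Zdhhc8, a palmitoyltransferase, differed most in this set, by −0.88 (standard error 0.34), with signals of 221–421 in PM-LD, 360–902 in zinc sulfate and 279–883 in saline. Its groups overlapped before normalization, and without zinc sulfate replicate 3, the rat at 902, it was −0.63 and did not pass. Pnn, a nuclear protein of splicing, was at −0.64 (standard error 0.25), Stk25, a kinase of the germinal center family, at −0.57 (standard error 0.19) and Ndst2, a heparan sulfate sulfotransferase, at −0.46 (standard error 0.18). The second probe set was at −0.14 for Pnn and at 0.26 for Erp44.

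Of these 20 genes, 8 kept their call without any 1 array, and they were Sh3bp5, Rnf4, Fndc3b, Sirpa, Bnip1, Stk25, Otud4 and Psmd13. In 13 of the 20 the groups did not overlap before normalization either. The genes were chosen for the lack of overlap, which fixes the exact permutation p at the smallest that 4 against 4 rats allow (0.0286, two-sided), so that this p adds nothing to the choice. The mean of the saline rats was closer to PM-LD than to zinc sulfate in 5 of the 10 higher and in 5 of the 10 lower genes.

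**Figure D2:**
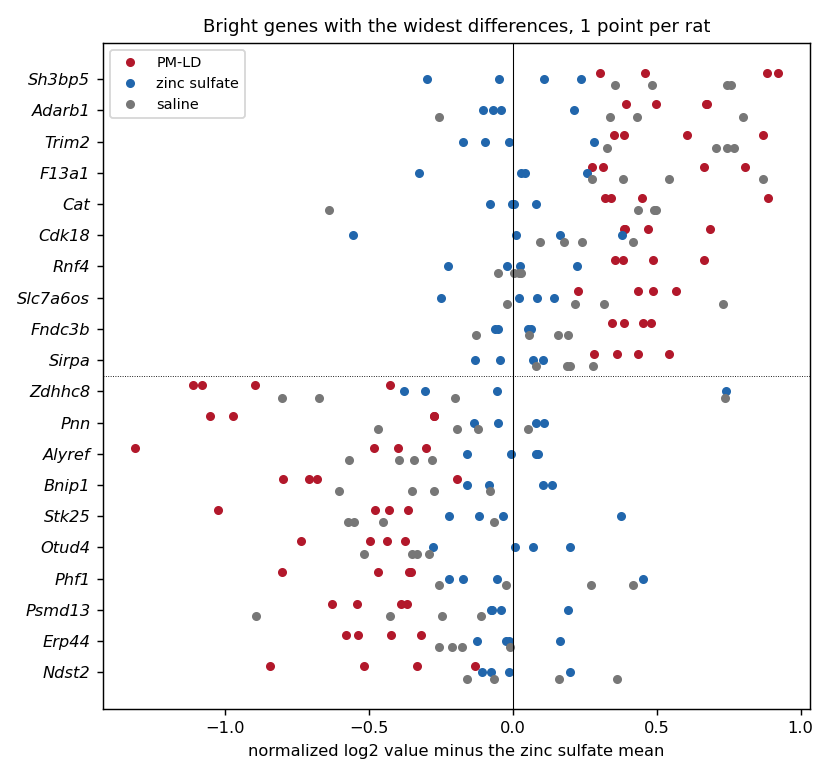
Normalized log2 values of each rat minus the zinc sulfate mean of the gene (x axis) for the 20 bright genes, with PM-LD (red), zinc sulfate (blue) and saline (gray) in 4 points each and the higher genes above the dotted line. PM-LD and zinc sulfate points do not overlap in any of these genes, which is part of how they were chosen, and the saline points lie near PM-LD for Otud4 and near zinc sulfate for Fndc3b.

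Across all 517 probe sets past the thresholds, the saline mean was closer to PM-LD in 271 (52.4%, against 48.9% of all probe sets tested) and closer to zinc sulfate in 246. The series holds a further pair of groups that differ in the solids, PM-HD (the whole suspension at the higher dose) and PM-L (its soluble fraction), and these share no arrays with the comparison here. Of the 517 probe sets, 247 (47.8%) had the same sign in PM-HD minus PM-L, against 47.7% of all probe sets tested. Only 15 passed both thresholds there in the same direction and 22 in the opposite direction. Across probe sets, which are not independent replicates, Pearson's r between the log2 fold changes of the 2 comparisons was −0.04, and −0.11 over bright probe sets. Of the 20 genes above, 5 of the 10 higher and 4 of the 10 lower had the same sign in PM-HD minus PM-L.

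The 3 gene-named probe sets of lowest p were dim and were described after their values were seen. Slc4a4, the sodium bicarbonate cotransporter, had signals of 144, 174, 54.1 and 218 in PM-LD, against 41.8, 30.8, 38.2 and 38.1 in zinc sulfate and 30.1–79.2 in saline, a log2 fold change of 1.42 (standard error 0.30) with an adjusted p of 0.891 in limma. Cps1, carbamoyl phosphate synthetase, a liver enzyme of the urea cycle, had 93.0, 56.8, 94.6 and 75.8 in PM-LD, against 40.0, 7.30, 18.5 and 6.80 in zinc sulfate and 17.4–169 in saline, a log2 fold change of 1.54 (standard error 0.35). Usp48, a deubiquitinase, had 123, 102, 98.7 and 109 in PM-LD, against 191, 176, 215 and 182 in zinc sulfate and 127–222 in saline, a log2 fold change of −0.80 (standard error 0.17). All 3 kept their calls without any 1 array. For Slc4a4, PM-LD replicate 3 was the lowest PM-LD rat. After normalization it lay within the range of zinc sulfate, at 5.953 against 5.973 for zinc sulfate replicate 1 in log2. Without that PM-LD rat, the Slc4a4 probe set alone reached an adjusted p under 0.05 (2.7e-04 in limma). The brighter probe set of Slc4a4 was at 0.07, the brighter probe set of Usp48 at −0.23 and the second probe set of Cps1 at 0.17.

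Of the 4 bright probe sets that differed more than 2-fold, described after their values were seen, 1 had a gene symbol. It belongs to Tpm1, a tropomyosin of the sarcomere, and had signals of 192, 48.2, 359 and 84.1 in PM-LD, against 371, 265, 251 and 313 in zinc sulfate and 79.0–430 in saline, with a log2 fold change of −1.08 (standard error 0.50). The groups overlapped, and the brightest probe set of Tpm1 was at −0.03. The largest of the 4 differences was in a probe set that carries no symbol in the annotation, at 197, 1784, 1565 and 287 in PM-LD, against 2055, 2664, 1194 and 2889 in zinc sulfate and 1788–3374 in saline. Its log2 fold change was −1.60 (standard error 0.58), with 2 PM-LD rats far below all others and 2 within the range of zinc sulfate. The remaining 2, also without a symbol, were at 1.11 and −1.10, and their groups overlapped too.

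Zinc handling genes showed no difference past the thresholds, with 0 of 20 measured members called, against 2.74% of all genes, and a list of 20 is too short for 0 calls to set it apart from that share. Their median log2 fold change was −0.13, with 4 positive and 16 negative, beside a median of −0.0066 over all genes. None had PM-LD and zinc sulfate rats apart, against 1.92% of all genes, and the list is too short for this to set it apart either.

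The metallothioneins Mt1 and Mt2A, whose promoters hold the metal response cores shown above, are the classic targets of zinc. Mt2A had signals of 1124, 836, 792 and 768 in PM-LD, against 1044, 1198, 605 and 1255 in zinc sulfate and 666, 838, 337 and 663 in saline. The PM-LD rats lay within the span of the zinc sulfate rats, and the log2 fold change was −0.16 with a 95% interval of −0.97 to 0.65. Mt1 was dim, at 9.70, 8.40, 132 and 11.4 in PM-LD, against 15.1, 66.2, 64.5 and 63.1 in zinc sulfate and 9.70, 47.3, 13.2 and 14.8 in saline. PM-LD replicate 3 stood far above the other 3 PM-LD rats, and the log2 fold change was −0.76 (95% interval −1.88 to 0.37). Without that rat it was −1.32 and passed the thresholds, and the Gapdh ratio of that rat was 4.64; its part in the value was not tested. Mt3 was at −0.06 (−0.83 to 0.70). A brighter probe set that the annotation assigns to Mt1 together with other genes was not used.

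Among the transporters, Slc30a1, the exporter of the plasma membrane, had signals of 165, 222, 207 and 191 in PM-LD, against 156, 123, 166 and 158 in zinc sulfate and 118–174 in saline. By signal, only 1 PM-LD rat lay within the range of zinc sulfate, and after normalization replicates 1 and 3 did. The log2 fold change was 0.28 (95% interval −0.08 to 0.64). Mtf1, the metal sensor itself, was at 0.32 (−0.06 to 0.69) and passed without zinc sulfate replicate 3, at 0.48. Slc30a2, which loads zinc into vesicles, had 138, 96.4, 224 and 88.2 in PM-LD, against 174, 133, 164 and 145 in zinc sulfate and 152–352 in saline. Its log2 fold change was −0.28 (−0.72 to 0.16), and without PM-LD replicate 3 it passed at −0.46. The importer Slc39a1 was at −0.48 (−1.02 to 0.06) and passed at −0.65 without PM-LD replicate 1 and at −0.62 without replicate 2. The dim importer Slc39a3 was at 0.87 (−0.24 to 1.98) and passed at 1.20 without PM-LD replicate 1. The other 12 members lay between −0.49 (Slc30a7) and 0.08 (Slc39a13).

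**Figure D3:**
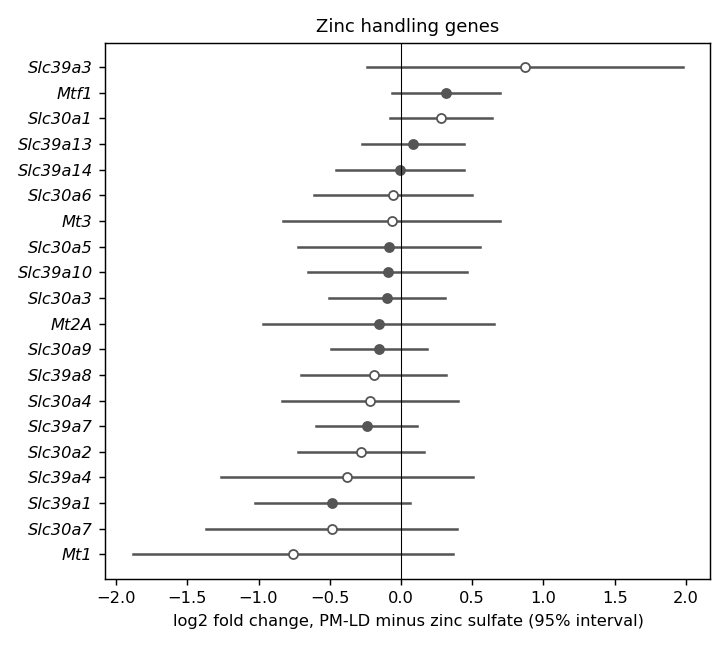
Log2 fold change, PM-LD minus zinc sulfate, with its 95% interval (x axis) for 20 zinc handling genes (y axis), filled points for genes brighter than the median probe set and open points for dimmer ones. All 20 intervals include 0, and the widest belong to dim genes such as Mt1 and Slc39a3.

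The clock genes did not differ past the thresholds between PM-LD and zinc sulfate either, with 0 of 16 members called, against 2.74% of all genes, so that few or no calls in a list of this size carry little information. The median log2 fold change was 0.05. After normalization Dbp, Nr1d1, Nr1d2 and Bmal1 lay wholly on the same side of saline in both groups. Each other member overlapped with saline in PM-LD, in zinc sulfate or in both. The share of all genes apart from saline in both groups was not counted, so these members are not set against it. Dbp, a transcription factor that oscillates strongly, had signals of 967, 802, 1222 and 783 in PM-LD, against 1239, 945, 770 and 767 in zinc sulfate and 230, 201, 145 and 124 in saline. PM-LD and zinc sulfate spanned nearly the same range, far above saline. The log2 fold change between them was 0.03 with a 95% interval of −0.85 to 0.91, which runs from 0.555-fold to 1.88-fold. The log2 difference from the same saline rats was 2.38 in PM-LD and 2.35 in zinc sulfate.

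Nr1d1 had signals of 1113, 986, 1112 and 731 in PM-LD, against 976, 957, 663 and 1091 in zinc sulfate and 472, 391, 304 and 206 in saline, with a log2 fold change of 0.11 (−0.58 to 0.80). Nr1d2 had 1043, 1123, 1415 and 1025 in PM-LD, against 1143, 1168, 1052 and 966 in zinc sulfate and 225–773 in saline, with a log2 fold change of 0.09 (−0.59 to 0.76). Bmal1 ran the other way, at 161, 221, 137 and 171 in PM-LD, against 161, 173, 211 and 244 in zinc sulfate and 362, 344, 466 and 425 in saline. For these 3 genes both exposed groups lay wholly on the same side of saline and overlapped with each other. The log2 fold change of Bmal1 was −0.24 (−1.28 to 0.80).

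The other clock genes varied among rats of a group. Tef, a relative of Dbp, was dim, at 137, 105, 278 and 78.6 in PM-LD, against 94.3, 29.8, 113 and 69.7 in zinc sulfate and 16.8–65.3 in saline, and its log2 fold change of 0.75 (−0.13 to 1.62) passed without PM-LD replicate 4, at 0.95. The period gene Per1 ranged from 83.5 to 1121 in PM-LD and from 358 to 849 in zinc sulfate (−0.59, −1.99 to 0.82), and Per2 from 398 to 1180 in PM-LD and from 175 to 738 in zinc sulfate (0.36, −0.46 to 1.18). A dim second probe set of Nr1d2 was higher in PM-LD by 1.13 (standard error 0.48), unlike the brightest one. The sources used here do not state the time of day at which tissue was taken, and its part in the levels of clock genes was not tested. Cdkn1a, an inhibitor of the cell cycle, also lay below every saline rat (1196–1569) in PM-LD (741–1159) and in zinc sulfate (782–1032), with a log2 fold change between them of 0.06 (−0.42 to 0.53).

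**Figure D4:**
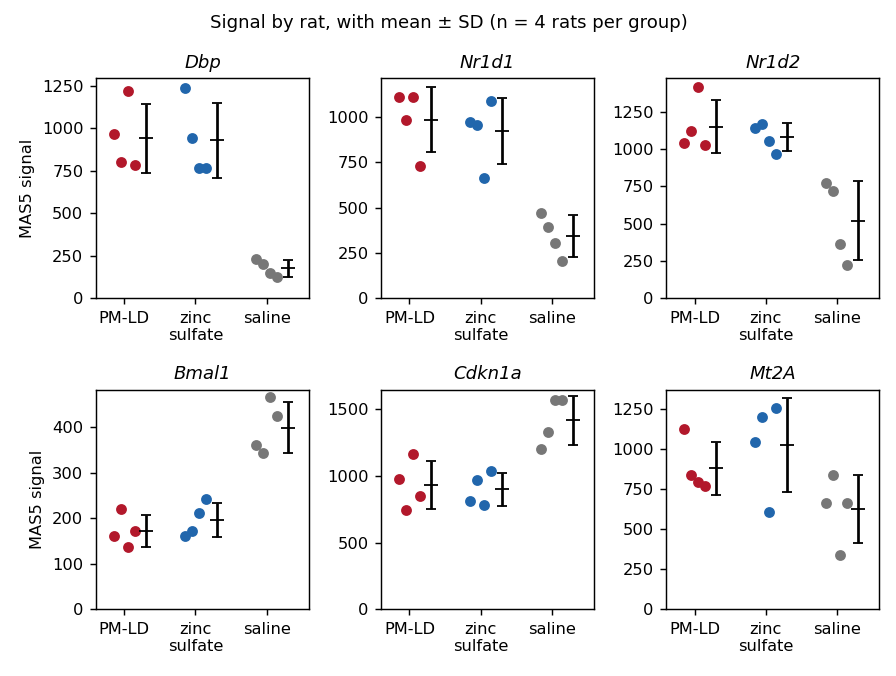
MAS5 signal (y axis, linear) of 6 genes in each rat of the PM-LD (red), zinc sulfate (blue) and saline (gray) groups, with the mean ± SD of 4 rats beside the points. PM-LD and zinc sulfate overlap in all 6 genes and lie apart from saline in Dbp, Nr1d1, Nr1d2, Bmal1 and Cdkn1a, while Mt2A overlaps in all 3 groups.

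Of 17 macrophage markers measured, 3 were higher past the thresholds and 0 lower, against 1.48% of all genes higher, 16 of 17 log2 fold changes were positive, and the median was 0.19. C1qc, a chain of complement component C1q, which tissue macrophages make, had signals of 583, 413, 542 and 316 in PM-LD, against 278, 274, 293 and 306 in zinc sulfate and 334–477 in saline. Before normalization the zinc sulfate rats lay close together below all rats of the other 2 groups. After normalization the groups overlapped, with the lowest PM-LD rat and the lowest saline rat within the range of zinc sulfate. The log2 fold change of 0.59 (standard error 0.18) kept its call without any 1 array. C1qa, another chain, had 468, 345, 581 and 312 in PM-LD, against 336, 268, 320 and 238 in zinc sulfate and 326–519 in saline, with a log2 fold change of 0.47 (standard error 0.18). Without PM-LD replicate 3 it was 0.35 and did not pass. The third chain, C1qb, was dimmer and at 0.25 (95% interval −0.34 to 0.84).

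The third marker past the thresholds, the inhibitory antibody receptor Fcgr2b, was near the floor of the arrays, at 9.10, 19, 84.0 and 13.5 in PM-LD, against 3.80, 2.70, 11.5 and 3.20 in zinc sulfate. Its log2 fold change was 0.90 (standard error 0.39), and 0.53 without PM-LD replicate 3. The call was lost without that rat, without zinc sulfate replicate 1, 2 or 4, and with a pseudocount of 64. The other 14 markers did not pass and lay between −0.15 (Itgam, an integrin chain) and 0.49 (Ctss, a lysosomal protease). Among them Fcer1g, an antibody receptor chain, and Cd53, a tetraspanin of leukocytes, were at 0.39 each, Csf1r, the receptor of macrophage growth factor, at 0.23, Lyz2, lysozyme, at 0.09 and Cd68, a lysosomal glycoprotein, at 0.01. The summed signal of the 17 markers was 7558, 5098, 10605 and 5346 in PM-LD, against 5356, 5583, 7726 and 4750 in zinc sulfate and 4952–7651 in saline. Replicate 3 was the highest rat of each exposed group, and it was also the rat with the high Gapdh ratio. Without the arrays of a Gapdh ratio above 3, C1qc kept its call, and C1qa (0.35) and Fcgr2b (0.64) did not. With the Gapdh ratio as a covariate in the fit of all arrays, all 3 kept their calls, at 0.59 for C1qc, 0.48 for C1qa and 0.95 for Fcgr2b.

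**Figure D5:**
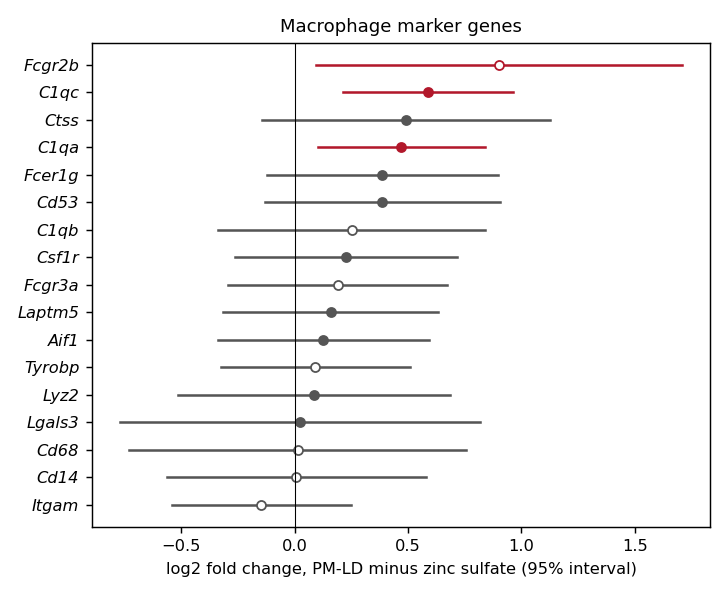
Log2 fold change, PM-LD minus zinc sulfate, with its 95% interval (x axis) for 17 macrophage markers (y axis), in red where the gene passed both thresholds and with open points for genes dimmer than the median probe set. Of the 17, 16 points lie above 0, and the intervals of Fcgr2b, C1qc and C1qa leave out 0.

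Markers of other cells showed scattered calls, beside 2.74% of all genes called, and few or no calls in lists this short carry little information. Among 14 lymphocyte and neutrophil markers, Cd8b, a chain of the coreceptor of cytotoxic T cells, was higher by 0.82 (standard error 0.31) and Cd3e, a chain of the T cell receptor complex, was lower, at −0.98 (standard error 0.45), and both were dim. The call of Cd3e was lost without 6 of the 8 single arrays, with the replicate number as a block and in a fit of only the 8 arrays, and that of Cd8b without PM-LD replicate 3 or zinc sulfate replicate 4. The fibroblast list had 13 of 14 positive values with a median of 0.15, but only Ogn, a matrix proteoglycan, passed (0.47, standard error 0.21). For Ogn, 3 zinc sulfate rats were at 1021–1099 and replicate 3 at 476, against 1097–1285 in PM-LD, and without that replicate the log2 fold change was 0.16. Endothelial markers had the lowest median of all lists, −0.17, with 13 of 15 negative and none past the thresholds. The 8 lung epithelium markers were all dim, with none past the thresholds.

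Of 56 kinase signaling genes measured, 3 were higher in PM-LD and 0 lower, against 1.48% of all genes higher, and the median of the list was 0.02. Prkar2b, a regulatory subunit of protein kinase A, had signals of 233, 146, 255 and 243 in PM-LD, against 92.2, 135, 187 and 107 in zinc sulfate and 178–245 in saline. After normalization PM-LD lay wholly above zinc sulfate, and zinc sulfate wholly below saline, and the log2 fold change was 0.65 (standard error 0.19). The call held without any 1 array. Prkci and Prkcb, isoforms of protein kinase C, were higher by 0.39 (standard error 0.17) and 0.40 (standard error 0.18), with signals of 312–420 and 139–265 in PM-LD, against 197–307 and 121–170 in zinc sulfate. Both lost their calls when some single arrays were left out. Egfr, the receptor of epidermal growth factor, was dim, at 66.3–111 in PM-LD, against 16.5–69.7 in zinc sulfate, and its log2 fold change of 0.62 did not pass (95% interval −0.34 to 1.58).

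Of 48 ion channel genes measured, 0 were higher and 3 lower in PM-LD, against 1.26% of all genes lower, and the median was −0.07. Kcnj12, an inward rectifier channel of the ventricle, had signals of 50.0, 91.3, 27.2 and 70.9 in PM-LD, against 171, 59.6, 120 and 124 in zinc sulfate and 40.5–98.6 in saline, a log2 fold change of −0.88 (standard error 0.39). Kcne2, an accessory channel subunit, had 47.1, 34.5, 58.5 and 109 in PM-LD, against 65.6, 127, 108 and 133 in zinc sulfate and 110–130 in saline, a log2 fold change of −0.79 (standard error 0.38). Kcnip1 was under 16 in 7 of the 8 rats, with only zinc sulfate replicate 3 at 72.5, and its value of −0.66 was −0.20 without that rat. All 3 were dim, their signals overlapped before normalization, and each lost its call when some single arrays were left out.

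Of all genes, 2.74% passed the thresholds. Among genes of energy metabolism, the main work of heart muscle, none of 66 electron transport and ATP synthase genes, 39 genes of fatty acid oxidation and PPAR α targets or 22 citrate cycle genes passed the thresholds, with median log2 fold changes of 0.04, 0.10 and 0.08. All 66 electron transport genes were brighter than the median probe set and lay between −0.32 and 0.29. Fabp3, the fatty acid binding protein of heart, had signals of 19156–31140 in PM-LD, against 14812–36233 in zinc sulfate, with a log2 fold change of 0.19 (95% interval −0.26 to 0.65). Sarcomere (30 genes), calcium handling (37), extracellular matrix (53) and phosphatase (50) lists had no member past the thresholds.

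In the stress and inflammation lists, 1 member each of 30, 37 and 43 passed (3.33%, 2.70% and 2.33%), against 2.74% of all genes. Of 30 heat shock and chaperone genes, Hspa4, a large chaperone of the heat shock family, was higher by 0.50 (standard error 0.24), while Hspa1a, the inducible chaperone, was at −0.20 (95% interval −0.82 to 0.42) and Hsp90b1, the chaperone of the endoplasmic reticulum, at −0.11 (−0.51 to 0.29). Of 37 antioxidant genes, Cat alone passed, and of 43 acute phase and inflammation genes, Ccl5, a chemokine of T cells and monocytes, was higher by 0.60 (standard error 0.27), with PM-LD replicate 3 at 779, the other PM-LD rats at 331–463, zinc sulfate at 237–424 and saline at 262–388. When each of the 8 arrays was left out in turn, Hspa4 kept its call in 2 fits and Ccl5 in 4. Both calls were also lost in a fit of only the 8 arrays.

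Nrg1, the growth factor neuregulin, was the 1 gene past the thresholds among 20 genes of the cardiac stress program, higher by 0.87 (standard error 0.36), with signals of 94.8–174 in PM-LD, against 22.7–125 in zinc sulfate. It was dim, and averaged over all its probe sets it was −0.10. Nppa, the atrial natriuretic peptide, had 8105, 18690, 3880 and 7503 in PM-LD, against 12121, 8442, 2256 and 4475 in zinc sulfate and 1752–10123 in saline (0.67, 95% interval −0.55 to 1.90). Rpl24, of 40 cytosolic ribosomal protein genes, was higher by 0.32 (standard error 0.15), a call lost without 4 of the 8 single arrays and, among other settings, with median centering and with the Gapdh ratio or the atrial mean as a covariate. Of 17 skeletal muscle markers, only Tnnc2, the troponin C of fast skeletal muscle, passed, at −1.13 (standard error 0.35). Its signals were 4.90–49.2 in PM-LD, against 45.5–79.7 in zinc sulfate and 10.3–53.1 in saline. It was dim, and PM-LD and zinc sulfate overlapped. The median of that list was 0.05, with 9 positive and 8 negative values. Cyclin D1 (Ccnd1) was at −0.15 (−0.61 to 0.30) and the phosphatase Ptprm at 0.02 (−0.33 to 0.37). Over the 35 lists, 19 of 896 genes (2.12%) passed the thresholds, against 2.74% of all genes, and 23 lists had no member that did, with list medians from −0.17 for endothelial markers to 0.22 for glucocorticoid induced genes.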

How the data were processed

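Groups were taken from the labels of the arrays. The authors extracted signal intensity, on a linear scale, with MAS5, whose version the sources used here do not give, and the deposited table holds these intensities scaled to 1 trimmed mean per array. The study ran its own tests on robust multiarray averages, not analysed here. The number of arrays limits the precision.

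After adding 16, log2 values of all 24 arrays were quantile normalized, and limma 3.58.1 (R 4.3.3) gave the group means, contrasts, standard errors and 95% intervals from 1 fit of all 6 groups. The script was tested on simulated data. Signals in the text are as deposited. "Overlap" refers to normalized values unless signals are named, and "bright" means above the median of all tested probe sets. The platform annotation gave 12783 probe sets 1 symbol, 312 several and 2771 none, and 12748 of the first matched RefSeq of GRCr8. Exact permutation tests ran over all 70 arrangements of 4 against 4 rats.

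The comparison and the gene lists were chosen with earlier results of these data known. Named genes were the 10 widest differences in each direction among bright genes past the thresholds without overlap, up to 4 called members of each list, all clock genes and metallothioneins, and genes the study names (64 in all). The other macrophage and zinc handling genes, 4 atrial genes, the 3 genes of lowest p and the 4 bright probe sets over 2-fold were added after their values were seen. Alternatives were a pseudocount of 1 or 64, median centering, leaving out the dimmest 25% of probe sets, limma's trend and robust options, only the 8 arrays, the replicate number as a block, the Gapdh ratio or the atrial mean as a covariate, other fold limits, an adjusted p, averaging the probe sets of each gene, and omitting each array in turn. Omitting the arrays with a Gapdh ratio over 3, or those with an atrial mean over 11, was added after seeing the data.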

Additional observations from a re-analysis of the deposited data

Results flagged for a closer look

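Of 206 groups of 4 values examined (the genes described, the Gapdh ratio and the atrial mean, in PM-LD and in zinc sulfate), 22 held 1 rat far from the other 3, with a gap to its nearest neighbor above 0.829 of the whole range of the group on the normalized log2 scale. Chance alone sets about 1 in 20 groups apart in this way.

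In zinc sulfate, replicate 3 was the rat set apart for the Gapdh ratio, at 5.57 (gap 0.954). The same rat was the highest for Psmd13 at 888 (0.866), Kcnip1 at 72.5 (0.924), Fcgr2b at 11.5 (0.857), Csnk1d at 1169 (0.857), Lgals3 at 1389 (0.893), Slc39a1 at 988 (0.841) and Slc39a10 at 530 (0.915). It was the lowest for Ogn at 476 (0.923), Bhlhe41 at 131 (0.877) and Fabp3 at 14812 (0.96). Replicate 2 was set apart for the atrial mean at 11.7 (0.916), for Myl7 at 5317 (0.896) and, as the lowest, for Egfr at 16.5 (0.979). Replicate 4 was the lowest for Per2 at 175 (0.88) and Slc30a9 at 702 (0.953), and replicate 1 for Itgam at 19.4 (0.863).

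In PM-LD, replicate 3 was the highest for Mt1 at 132 (0.943) and the lowest for Usp48 at 98.7 (0.845). Replicate 4 was the lowest for Stk25 at 175 (0.829) and the highest for Kcne2 at 109 (0.852), and replicate 2 was the highest for Itgam at 29.1 (0.894). For Usp48 and Itgam the gap is one of normalized values, since the nearest signals were close, at 102 and 28.0.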

How the results depend on the processing

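The 517 probe sets past the thresholds became 0 with an adjusted p under 0.05 (0 higher, 0 lower, 0 genes and 0 list members) and 318 (179 higher, 139 lower) after the dimmest 25% were left out, which tests fewer probe sets. The count was 419–538 with another pseudocount, 528 with median centering, 481 with an intensity trend and a robust prior, 520 in a fit of only the 8 arrays (335 shared with the 517) and 522 with the atrial mean as a covariate. With the Gapdh ratio as a covariate it was 662, and the list members past the thresholds were 29 instead of 19.

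Without any 1 array, the counts ranged over 485–635 probe sets (264–326 higher, 221–338 lower), 271–364 genes and 14–31 list members, the last without zinc sulfate replicate 3, and 305–360 of the 517 probe sets were shared. The log2 difference of the Gapdh ratio ranged from −0.54 to 0.37 and that of the atrial mean from −0.91 to 0.89. Nrg1 reversed to −0.10 as the mean of all its probe sets.

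With the replicate number as a block, 544 probe sets passed (300 higher, 244 lower), 470 of them among the 517. The deviations of same-numbered rats of the 2 groups correlated at −2.2e-05, 0.23, 0.52 and 0.22 for replicates 1 to 4, and not every rat correlated best with its own number, so that the numbers were not taken as pairs.

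The precision is limited by 4 rats a group and by low signals, since 7.30–10.6% of PM-LD and 7.95–9.90% of zinc sulfate signals on an array lay under 16.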
